A study of Mus musculus with 9 samples.

Results

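GM-BMDM, a kind of mouse bone-marrow-derived macrophage, were compared after 4 h of tunicamycin with the same kind left untreated, with 1 RNA-seq library for each state. Of 22060 genes in the deposited macrophage table, 11049 were compared: those with a mean of at least 1 CPM (read counts scaled to the size of the library) over the 4 macrophage libraries of the series. The difference given for each gene is log2(CPM + 1) with tunicamycin minus log2(CPM + 1) untreated. A difference of -1 or less is called at least 2-fold lower and 1 or more at least 2-fold higher. By that rule 49 genes (0.443%) were lower and 7 (0.0634%) were higher with tunicamycin.

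The cells came from bone marrow of strain C57BL. The labels name no other treatment, write tunicamycin as Tm, leave the letters GM unexpanded and give neither the age of the mice nor the dose. The libraries set beside this pair are from M-BMDM with 4 h of tunicamycin and from untreated M-BMDM, the other kind of macrophage in the study. A further 5 libraries of the series are from Lewis lung carcinoma cells and were not compared here. Nothing in the labels says whether the macrophage libraries came from separate cultures. With 1 library per group no difference has a replicate check and no p-value is given. Folds are ratios of CPM with exact 95% intervals, which hold counting error alone and take each read as a molecule of its own.

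Tunicamycin blocks the transfer of sugar to dolichol, the start of N-linked glycosylation, so that proteins misfold in the endoplasmic reticulum (ER). The cell answers through the sensors PERK, IRE1 and ATF6. PERK slows translation and favours the transcription factor ATF4, which turns on genes such as Ddit3, Trib3, Chac1 and Asns, while ATF6 and IRE1 with XBP1 raise ER chaperones. Macrophages grown from marrow in the growth factor GM-CSF are known to carry dendritic-cell features, among them MHC class II, the molecules that show peptides to helper T cells. Transcription of the class II genes is switched on by CIITA, a coactivator that docks on factors bound to an S, X and Y box at each promoter.

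Promoter sequences of genes at both ends of the response are shown because they hold the letters that ATF4 and the class II factors are known for. They run from 250 bases before to 50 bases after the start in RefSeq (build GRCm38.p6), on the strand of the gene. The motif searched for ATF4 was TGATGNAA, on both strands. It was found in 4 of the 7 genes that were at least 2-fold higher, against 2.86% of the 8923 compared genes with a promoter in the table and 3.97% of all 32851 promoters. None of 39 genes at least 2-fold lower held it (10 of the 49 had no promoter in the table). Capitals mark the match, shown as its reverse complement where it lies on the other strand, which begins 14 bases past the start in Trib3 and 193, 23 and 4 bases before it in Chac1, Asns and Slc1a4.
Trib3 (chr2:152344011-152344310, minus strand): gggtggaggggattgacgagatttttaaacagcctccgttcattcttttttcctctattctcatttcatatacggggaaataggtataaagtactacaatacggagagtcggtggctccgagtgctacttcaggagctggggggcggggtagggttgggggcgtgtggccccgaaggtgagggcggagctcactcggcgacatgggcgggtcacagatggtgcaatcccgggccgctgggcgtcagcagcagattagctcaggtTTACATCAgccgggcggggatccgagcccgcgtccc
Chac1 (chr2:119350992-119351291, plus strand): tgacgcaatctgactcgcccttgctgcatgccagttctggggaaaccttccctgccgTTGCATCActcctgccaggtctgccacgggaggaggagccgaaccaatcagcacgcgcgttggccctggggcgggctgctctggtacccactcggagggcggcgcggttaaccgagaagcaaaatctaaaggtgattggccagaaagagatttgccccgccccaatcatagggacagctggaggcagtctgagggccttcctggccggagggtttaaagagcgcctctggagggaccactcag
Asns (chr6:7693160-7693459, minus strand): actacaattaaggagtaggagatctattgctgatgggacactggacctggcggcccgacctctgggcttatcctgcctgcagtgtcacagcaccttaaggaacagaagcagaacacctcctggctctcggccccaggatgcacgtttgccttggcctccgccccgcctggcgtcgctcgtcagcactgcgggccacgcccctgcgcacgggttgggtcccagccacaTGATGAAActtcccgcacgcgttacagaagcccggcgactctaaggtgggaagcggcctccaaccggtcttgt
Slc1a4 (chr11:20332664-20332963, minus strand): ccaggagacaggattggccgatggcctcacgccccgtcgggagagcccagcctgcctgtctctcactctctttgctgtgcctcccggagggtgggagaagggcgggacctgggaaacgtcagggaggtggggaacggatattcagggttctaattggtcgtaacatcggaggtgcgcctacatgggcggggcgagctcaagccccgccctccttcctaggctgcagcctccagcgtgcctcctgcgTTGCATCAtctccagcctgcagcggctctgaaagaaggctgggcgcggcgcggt

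For class II genes the letters searched were those of a Y box, CTGATTGG, on both strands. They stood in the promoters of H2-Aa, H2-Eb1 and H2-Oa, 3 of the 15 genes of the class II list with a promoter in the table, against 6.84% of compared genes and 4.10% of all promoters. Among the genes at least 2-fold lower, 2 of 39 held them, and among those at least 2-fold higher, 3 of 7. They also stood in 8 of 18 genes of the ER chaperone list and 8 of 27 of the PERK-ATF4 list. The letters are thus not particular to class II. Capitals mark the match, which begins 51, 62 and 46 bases before the start in H2-Aa, H2-Eb1 and H2-Oa.
H2-Aa (chr17:34287774-34288073, minus strand): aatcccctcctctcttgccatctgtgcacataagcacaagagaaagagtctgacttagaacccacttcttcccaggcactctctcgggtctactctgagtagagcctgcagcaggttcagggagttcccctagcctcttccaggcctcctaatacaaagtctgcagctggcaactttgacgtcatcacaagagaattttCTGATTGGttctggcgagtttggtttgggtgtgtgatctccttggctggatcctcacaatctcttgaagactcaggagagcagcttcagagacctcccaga
H2-Eb1 (chr17:34305617-34305916, plus strand): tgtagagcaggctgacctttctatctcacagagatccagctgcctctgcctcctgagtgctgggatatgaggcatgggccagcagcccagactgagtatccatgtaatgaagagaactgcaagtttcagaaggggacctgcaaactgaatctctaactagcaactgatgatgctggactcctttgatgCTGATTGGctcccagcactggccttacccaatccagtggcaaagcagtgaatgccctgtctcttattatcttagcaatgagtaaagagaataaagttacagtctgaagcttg
H2-Oa (chr17:34092129-34092428, plus strand): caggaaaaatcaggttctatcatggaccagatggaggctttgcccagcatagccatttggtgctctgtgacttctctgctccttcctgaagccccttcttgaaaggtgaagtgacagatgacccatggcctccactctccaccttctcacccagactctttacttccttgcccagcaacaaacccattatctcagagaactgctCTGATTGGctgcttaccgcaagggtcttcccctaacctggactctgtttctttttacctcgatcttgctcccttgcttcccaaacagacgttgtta

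The response of GM-BMDM was narrow and weighted to the lower side. Against the 49 lower and 7 higher genes, the central 90% of genes lay between -0.34 and 0.29 and the SD over genes was 0.22. At a log2 difference of -0.5 or less there were 253 genes (2.29%), against 84 genes (0.76%) at 0.5 or more. In M-BMDM the same rules gave 32 genes lower (0.29%) and 130 higher (1.18%), with an SD over genes of 0.35. Scaled by total counts alone, the split there was 17 lower and 166 higher. The groups there have their own untreated library, and the difference between the 2 kinds in these counts was not tested.

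**Figure D1:**
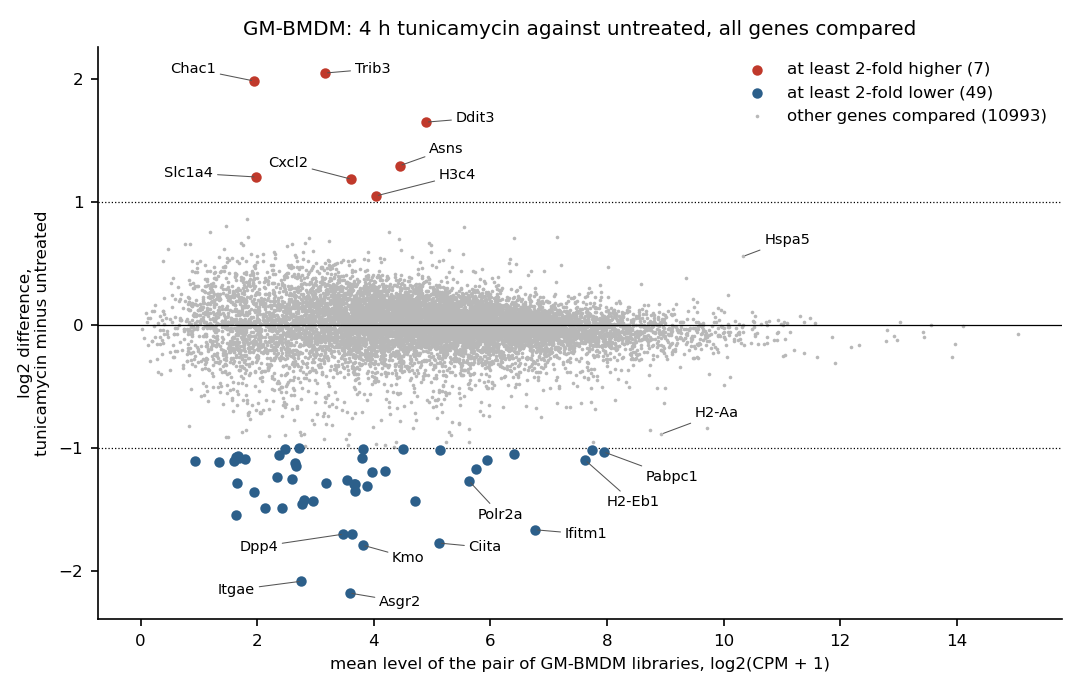
Log2 difference of each of the 11049 compared genes in GM-BMDM, tunicamycin minus untreated (y axis), against the mean level of both libraries as log2(CPM + 1) (x axis). Dotted lines mark 2-fold; 7 genes lie above the upper line, and 49 lie below the lower one, down to -2.18 for Asgr2.

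The libraries held 42751176 counts with tunicamycin and 42107553 untreated, and those of M-BMDM 39592377 and 37695079. The interval of the fold left out 1 for all 49 lower and all 7 higher genes. The calling rule and the depth all but fixed that outcome, so it adds no support for them. The interval lay wholly beyond 2-fold for 40 lower and 6 higher genes. The lower genes were mostly of modest level per length, in the deposited FPKM, with a median of 1.02 FPKM with tunicamycin and 2.90 FPKM untreated. The medians of all compared genes were 6.69 FPKM with tunicamycin and 6.35 FPKM untreated. Just inside the lower threshold stood Hr at -1.002 and just outside it Ppp2r2a at -0.99. On the higher side H3c4 stood inside at 1.05 and Fut7 outside at 0.86, and the minimum level lay between Atl1 at a mean of 1.0004 CPM and Cacna1f at 0.998 CPM.

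MHC class II genes were lower in GM-BMDM with tunicamycin. The list on class II presentation named 21 genes, of which 19 were compared, and 16 of the 19 were below 0, against 49.7% of all genes. At least 2-fold lower were 4 of the 19, against 0.443% of all genes. The median of the 19 was -0.36, against 0.00 for all genes. In bulk RNA, fewer cells of a type and less RNA per cell cannot be told apart, here and in the results that follow.

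Ciita (ENSMUSG00000022504, chr16:10480059-10528418), the coactivator that controls the family, stood at 14.8 CPM with tunicamycin and at 52.95 CPM untreated, 3.58-fold lower (3.28 to 3.92). Its 627 counts with tunicamycin, against 2132 untreated, leave little counting error in that fold. The beta chain gene H2-Eb1 (chr17:34305867-34316674) had 125 CPM with tunicamycin and 269.5 CPM untreated, 2.16-fold lower (2.09 to 2.23). The genes of the other classical pair were lower by somewhat less. H2-Aa, the I-A alpha chain, had 343 CPM with tunicamycin and 635 CPM untreated, 1.85-fold lower (1.82 to 1.89). H2-Ab1, its beta chain, had 303 CPM with tunicamycin and 547 CPM untreated, 1.81-fold lower (1.77 to 1.85).

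The genes for peptide loading were unequal. H2-DMb2, a beta chain of the peptide exchanger H2-M, had 10.2 CPM with tunicamycin and 24.5 CPM untreated (2.40-fold lower), whereas H2-DMb1, its neighbour and near copy, had 92.0 and 103 CPM (1.12-fold lower). How reads were assigned between such copies is not given in the sources used here. The genes of H2-O, which restrains that exchange, were both lower: H2-Oa had 2.97 CPM with tunicamycin and 7.77 CPM untreated, and H2-Ob 2.12 and 4.12 CPM. The invariant chain gene Cd74 had 943 CPM with tunicamycin and 1262 CPM untreated, 1.34-fold lower (1.32 to 1.36), and H2-DMa 143 and 187 CPM.

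The factors that bind the class II promoter at other sites were close to their untreated level or above it, apart from Nfya. Rfx5 and Rfxap, subunits of the X-box factor RFX, differed by 0.22 and 0.19, and Rfxank, its remaining subunit, by -0.09. Nfya, which encodes a subunit of the Y-box factor NF-Y, was at -0.36, while Nfyb and Nfyc were at 0.14 and -0.06. The proteases that cut the invariant chain and antigens stood at -0.04 (Ctss) and -0.06 (Lgmn), and Marchf1, a ubiquitin ligase that removes class II from the surface, at -0.13. Under the minimum level was H2-Eb2, with 9 counts with tunicamycin and 4 untreated, and Ifi30 was not matched to a gene of the table. In M-BMDM Ciita had 18.2 CPM with tunicamycin and 28.3 CPM untreated. The list's median there was -0.28 with no member at least 2-fold lower. There 14 of the 19 compared were below 0 and 4 at -0.5 or less, against 49.1% and 4.91% of all genes in M-BMDM. H2-Eb1 was 1.44-fold lower in M-BMDM and Cd74 1.34-fold lower.

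**Figure D2:**
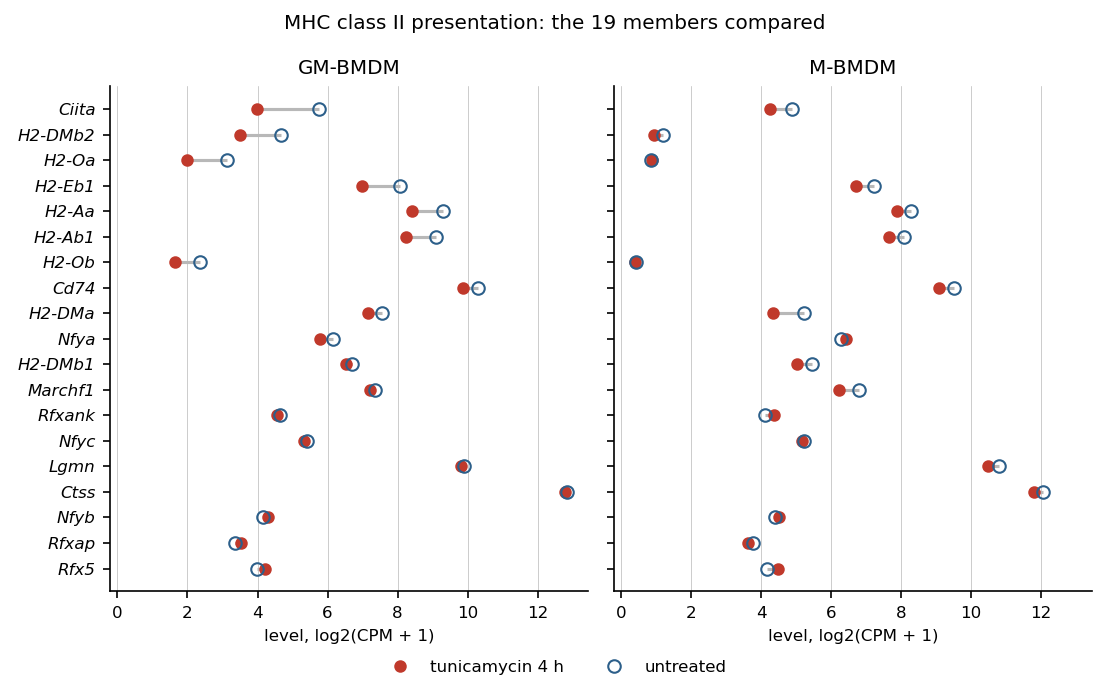
Level of the 19 compared members of the class II list as log2(CPM + 1) (x axis) in GM-BMDM (left) and M-BMDM (right), filled for tunicamycin and open for untreated. The widest gaps are in GM-BMDM at Ciita, H2-DMb2, H2-Oa and H2-Eb1, with differences of -1.77 to -1.10.

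Genes of the dendritic-cell surface were lower beside class II. Of 36 genes on that list 28 were compared, 25 were below 0, 11 were at -0.5 or less and 5 were at least 2-fold lower, with a median of -0.31. Over all compared genes the shares were 49.7% below 0, 2.29% at -0.5 or less and 0.443% at least 2-fold lower. Itgae (chr11:73090583-73147446), the CD103 integrin chain that marks dendritic cells of barrier tissues, had 1.58 CPM with tunicamycin and 9.93 CPM untreated. That is 67 counts with tunicamycin and 400 untreated, 6.29-fold lower (4.85 to 8.28). Dpp4 (chr2:62330073-62412231), the surface peptidase CD26, had 4.24 CPM with tunicamycin and 16.04 CPM untreated, 3.78-fold lower (3.20 to 4.49). Kmo (chr1:175620381-175662116), the enzyme that hydroxylates kynurenine, had 5.30 CPM with tunicamycin and 20.8 CPM untreated, 3.93-fold lower (3.38 to 4.57).

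The chemokines that draw CCR4-bearing T cells were lower as well. Ccl17 (chr8:94810453-94812036) had 141 CPM with tunicamycin and 286 CPM untreated, 2.03-fold lower (1.97 to 2.1). Ccl22, which shares its receptor, had 47.9 CPM with tunicamycin and 75.8 CPM untreated, at a difference of -0.65. Fscn1, an actin bundler of mature dendritic cells, was at -0.89, and the leukocyte adhesion molecule Jaml was at -0.80. Zbtb46, a transcription factor of classical dendritic cells, was at -0.51.

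Other dendritic-cell genes differed less. Itgax, the CD11c integrin chain, had 1059 CPM with tunicamycin and 1100.3 CPM untreated, and Ly75, the receptor DEC-205, was at -0.07. The costimulatory genes Cd86, Cd80 and Cd83 were at -0.42, -0.15 and -0.00, and the chemokine receptor gene Ccr7 was at -0.18. Clec9a, a receptor for dead cells, was above 0 at 0.25. Flt3, the growth factor receptor of dendritic-cell precursors, was under the minimum level with 5 counts with tunicamycin and 7 untreated. Over the 28 genes the median in M-BMDM was 0.01. Leading members were near the floor in M-BMDM and could hardly fall there, so nothing is read from that median. Itgae had 0.095 CPM with tunicamycin and 0.081 CPM untreated in M-BMDM, and Ccl17 0.118 and 0.054 CPM.

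Lectin receptors that bind galactose or mannose-type sugars held the largest negative difference of the comparison. Asgr2 (ENSMUSG00000040963, chr11:70092644-70106187), a chain of the asialoglycoprotein receptor, had 3.35 CPM with tunicamycin and 18.7 CPM untreated, 5.59-fold lower (4.67 to 6.74). Its neighbours on chromosome 11, the macrophage galactose lectins Mgl2 and Clec10a, were lower too. Mgl2 had 147 CPM with tunicamycin and 285 CPM untreated, just short of the threshold at -0.95, and Clec10a was at -0.67. In M-BMDM Mgl2 was at -0.87 and Clec10a at -1.05. Cd209a and Cd209c, mouse relatives of the receptor DC-SIGN, had 0.919 and 2.92 CPM with tunicamycin, against 3.13 and 7.55 CPM untreated. Reads of the Cd209 family may be shared among its near copies.

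Of 30 lectin genes listed 20 were compared, 16 were below 0 and 3 were at least 2-fold lower, with a median of -0.28, against 49.7% below 0 and 0.443% at least 2-fold lower over all genes. Unlike Mgl2, some well-expressed members differed little. Clec7a, the beta-glucan receptor Dectin-1, was at -0.00, Clec4n, the receptor Dectin-2, at -0.07, and the mannose receptor gene Mrc1 at -0.11. In M-BMDM the list's median was -0.55, with Mrc1 at -0.62 and Clec7a at -0.37.

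**Figure D3:**
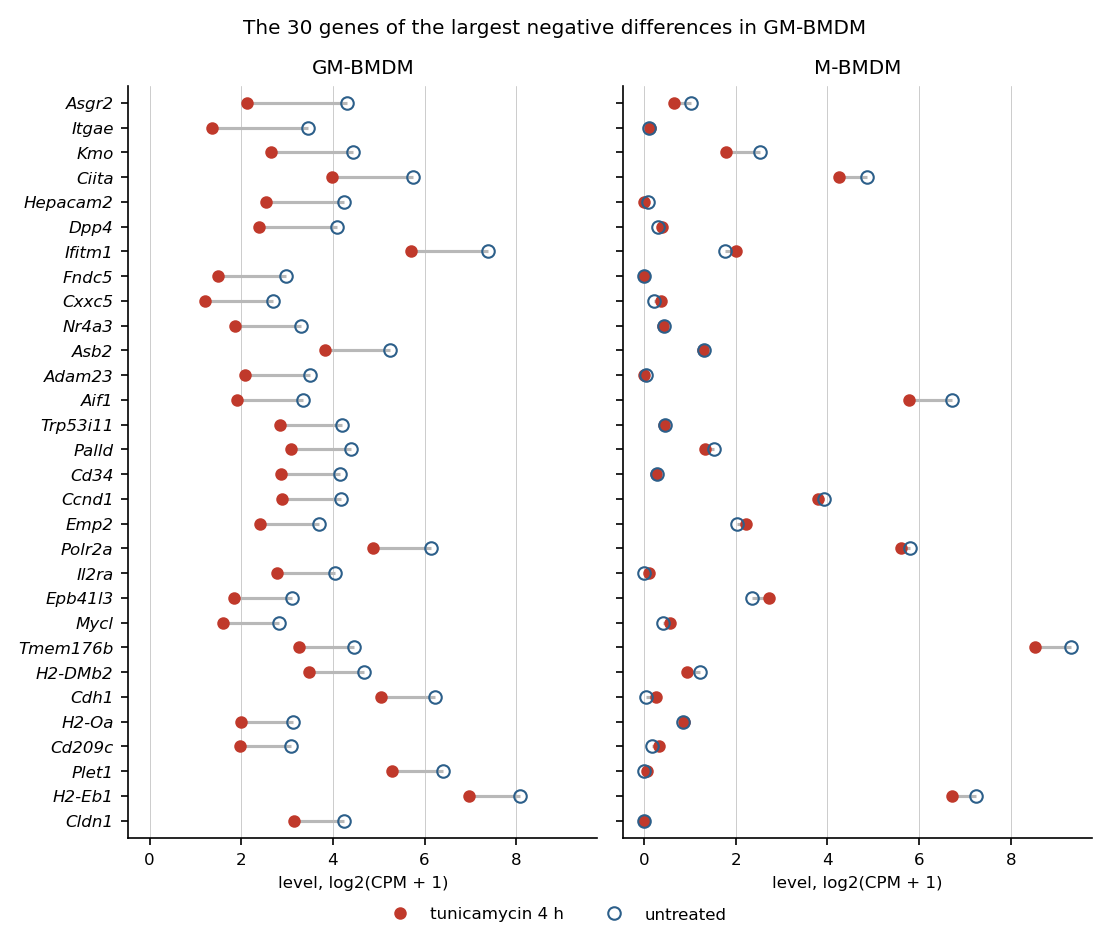
Level as log2(CPM + 1) (x axis) of the 30 genes with the largest negative differences among named genes of at least 5 CPM in either GM-BMDM library, in GM-BMDM (left) and M-BMDM (right), filled for tunicamycin and open for untreated. Each filled point lies left of its open point in GM-BMDM, and many of the genes lie near 0 in M-BMDM.

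Adhesion, junction and cytoskeletal genes are described together, 9 of the 49 in a grouping made by hand after their values were seen. Deposited terms for cell adhesion stood on 6 of the 49 (12.2%), against 1.80% of compared genes with terms. Cdh1 (chr8:106603351-106670246), the E-cadherin gene, had 32.1 CPM with tunicamycin and 73.5 CPM untreated, 2.29-fold lower (2.14 to 2.44). Cldn1, a tight-junction protein gene, had 7.94 CPM with tunicamycin and 18.0 CPM untreated. Plet1, which encodes a GPI-anchored surface protein, had 38.3 CPM with tunicamycin and 83.3 CPM untreated. All 3 were at or near 0 in both M-BMDM libraries, at no more than 0.190 CPM.

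Hepacam2, an immunoglobulin-family adhesion gene, had 4.78 CPM with tunicamycin and 17.8 CPM untreated, 3.72-fold lower (3.18 to 4.37). Emp2, which encodes a tetraspan membrane protein, had 4.29 CPM with tunicamycin and 11.9 CPM untreated, and Adam23, a member of the ADAM family without protease activity, 3.23 and 10.4 CPM. Palld, an organiser of actin bundles, was at -1.31, and Epb41l3, which links membrane to the cytoskeleton, was at -1.26. Ctnnd2, a delta-catenin gene, had 9 counts with tunicamycin and 65 untreated, and its 7.61-fold has a wide interval (3.77 to 17.4).

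Epithelial genes other than Cdh1 were nearly absent. Of 8 epithelial markers Cdh1 alone was compared, Cldn4, Krt19 and Krt5 had no counts in either GM-BMDM library, and Epcam had 4 counts with tunicamycin and 18 untreated. The summed level of the 8 was 32.3 CPM with tunicamycin and 74.0 CPM untreated, nearly all of it Cdh1. Integrins other than Itgae differed less: of 17 compared the median was -0.06 and Itgal, the LFA-1 alpha chain, was next at -0.55.

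Receptors and other surface proteins of immune cells gave 9 more of the 49, again grouped by hand after the values were seen and with no share over all genes. Ifitm1 (chr7:140967221-140969825), a membrane protein that hinders virus entry, had 51.4 CPM with tunicamycin and 165 CPM untreated, 3.22-fold lower (3.06 to 3.38). Interferon-stimulated genes at large did not share that difference: all 33 listed were compared, their median was -0.01 and none was at least 2-fold lower. Il2ra, the alpha chain of the interleukin-2 receptor and a known target of STAT5, had 5.87 CPM with tunicamycin and 15.5 CPM untreated, 2.64-fold lower (2.28 to 3.07).

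Il1rl1, the receptor of interleukin-33, had 2.36 CPM with tunicamycin and 5.99 CPM untreated, and Il1r2, a decoy receptor of interleukin-1, 8.37 and 17.8 CPM. Cd34, a sialomucin of blood progenitors, had 6.32 CPM with tunicamycin and 16.9 CPM untreated, 2.68-fold lower (2.32 to 3.10). The remaining ones were Tmem176b (-1.19), Adgrg5 (-1.36), Susd4 (-1.09) and Tspan33 (-1.06). Tmem176a, the neighbour of Tmem176b, stood just above the threshold at -0.99, and in M-BMDM the pair stood at -0.74 (Tmem176a) and -0.78 (Tmem176b).

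The receptor for GM-CSF itself was not among the lower genes. Csf2ra, its alpha chain, had 173 CPM with tunicamycin and 147 CPM untreated, and Csf2rb, its beta chain, 1783 and 1746 CPM. Of the 18 listed genes of GM-CSF signalling and STAT5, all compared, 13 were below 0, against 49.7% of all genes, and 2 were at least 2-fold lower, against 0.443%, namely Il2ra and Ccl17. Cish, a feedback inhibitor that STAT5 induces, was at -0.40, and Socs2, another, was at -0.04. The median of the list was -0.11 in GM-BMDM and 0.21 in M-BMDM. Il2ra and Ccl17 were near the floor in M-BMDM, with 3 and 5 counts with tunicamycin and 0 and 2 untreated. They could hardly fall there, so nothing is read from the M-BMDM median.

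Regulators of transcription, RNA and the cell cycle gave 10 of the 49, by the same kind of grouping. Nr4a3, an orphan nuclear receptor, had 2.62 CPM with tunicamycin and 8.94 CPM untreated, 3.42-fold lower (2.76 to 4.27). Mycl, a MYC relative that dendritic cells use, had 2.03 CPM with tunicamycin and 6.13 CPM untreated. These were the 2 genes at least 2-fold lower among 42 compared lineage transcription factors, whose median was -0.02. Over all genes 0.443% were at least 2-fold lower. Irf4, a factor of dendritic cells and of GM-CSF-grown macrophages, had 82.4 CPM with tunicamycin and 113 CPM untreated (-0.45). Irf8 was at 0.07, Pparg, a regulator of alveolar macrophages, at -0.11, and Batf3, a factor of cross-presenting dendritic cells, at 0.39.

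Polr2a (chr11:69733997-69758637), which encodes the largest subunit of RNA polymerase II, had 28.1 CPM with tunicamycin and 69.3 CPM untreated, 2.46-fold lower (2.30 to 2.64). In M-BMDM it had 47.9 CPM with tunicamycin and 54.6 CPM untreated. Pabpc1, the main cytoplasmic poly(A)-binding protein gene, had 161 CPM with tunicamycin and 330.4 CPM untreated, 2.05-fold lower (1.99 to 2.11), against 156 and 171 CPM in M-BMDM. Zmiz1, a coactivator, had 54.3 CPM with tunicamycin and 113 CPM untreated. The corepressor gene Hr was at the threshold, with 3.39 CPM with tunicamycin and 7.80 CPM untreated. Ccnd1, cyclin D1, had 6.43 CPM with tunicamycin and 17.2 CPM untreated, and the differences were -1.49 for Cxxc5, a zinc-finger factor, and -1.43 for Asb2, a substrate receptor of a ubiquitin ligase.

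Several chromatin regulators with long mRNAs stood just short of the threshold. They were named after their values were seen. The histone methyltransferase genes Kmt2d, Kmt2a and Setd1b were at -0.95, -0.95 and -0.93, against 0.11, -0.17 and -0.06 in M-BMDM. Spen, a corepressor scaffold, was at -0.87. Lrp1, a large endocytic receptor, had 603 CPM with tunicamycin and 1079 CPM untreated, at -0.84.

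The share of genes on the lower side differed by deposited gene length, with its higher values at both ends. Among the 1105 genes of the longest 10%, at least 9960 bases, 53 (4.80%) were at -0.5 or less, against 2.29% of all genes. The shortest 10% had the next highest share, 33 (2.99%), and the lowest of the 10 shares was 1.45%. In M-BMDM, where 4.91% of all genes were at -0.5 or less, there were 31 (2.81%) in the longest 10% and 115 (10.4%) in the shortest. The 49 lower genes themselves had a median length of 4574 bases, against 4504 for all genes, with 6 in the longest 10% and 11 in the shortest. The part of length in any single difference was not tested, and with the median of each 10% by length taken off, an alternative added after seeing the data, 46 genes were at least 2-fold lower. The share also differed by level in the GM-BMDM pair. At -0.5 or less were 4.80% of genes in the lowest 10% by level, 5.16% in the next and 0.452% at the least. The part of level was not tested either.

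**Figure D4:**
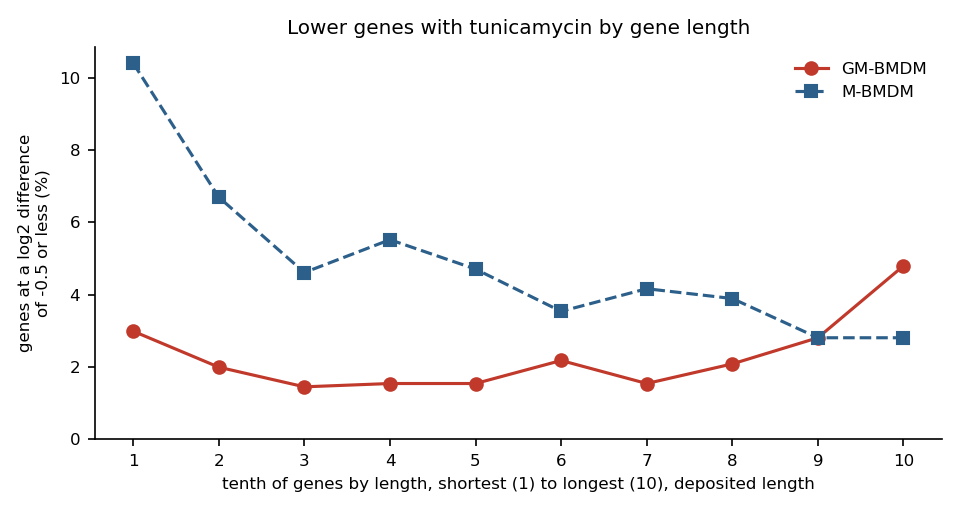
Percentage of genes with a log2 difference of -0.5 or less (y axis) in each 10% of the compared genes by deposited length (x axis, shortest to longest), for GM-BMDM (filled circles) and M-BMDM (squares). GM-BMDM has its highest share, 4.80%, in the longest 10%, and M-BMDM its highest, 10.4%, in the shortest.

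The other 10 lower genes fell in no group above. Aif1, the macrophage protein IBA1, had 2.78 CPM with tunicamycin and 9.14 CPM untreated, 3.29-fold lower (2.67 to 4.08), and 53.9 and 105 CPM in M-BMDM. Fndc5, which encodes the precursor of irisin, had 1.81 CPM with tunicamycin and 6.90 CPM untreated. Trp53i11, a gene induced by p53, had 6.20 CPM with tunicamycin and 17.3 CPM untreated. Cyp2s1, a cytochrome P450, had 25 counts with tunicamycin and 147 untreated, 6.20-fold lower (4.04 to 9.89). Klk1b9, a kallikrein with near copies among which reads may be shared, had 35 and 139 counts.

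Of the rest, Gimap1, a GTPase of lymphoid cells, was at -1.07, Tppp3, a tubulin-binding protein gene, at -1.01 and Kbtbd11 at -1.08. BC035044 was at -1.11 and, at -1.08 in M-BMDM, was the sole gene at least 2-fold lower in both kinds. The last was Ngp, which encodes a neutrophil granule protein.

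Ngp had 22.2 CPM with tunicamycin and 46.0 CPM untreated, 2.07-fold lower (1.91 to 2.24), and other granule genes stood lower beside it. S100a8 and S100a9, the calprotectin chains, were at -0.84 and -0.73, Ltf, lactoferrin, at -0.71, Prtn3, proteinase 3, at -0.69 and Lcn2, lipocalin 2, at -0.63. Of 16 neutrophil markers 10 were compared, 8 were below 0 and 6 were at -0.5 or less, with a median of -0.66 in GM-BMDM and 0.04 in M-BMDM. Over all genes in GM-BMDM 49.7% were below 0 and 2.29% at -0.5 or less. Several of these markers were near the floor in M-BMDM and could hardly fall there, so nothing is read from the M-BMDM median. Ltf had 0.758 CPM with tunicamycin and 0.671 CPM untreated in M-BMDM, and Prtn3 0.142 and 0.134 CPM. Under the minimum level, Mpo, myeloperoxidase, had 13 counts with tunicamycin and 86 untreated, and Elane, neutrophil elastase, 35 and 114. The summed level of the 16 was 1648 CPM with tunicamycin and 1727 CPM untreated, most of it Mmp8, a collagenase at 1485 and 1459 CPM. Ly6g, which defines mature neutrophils, had 16 counts with tunicamycin and 23 untreated.

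Markers of other cell types were few. The list for mast cells with basophils and eosinophils had 13 genes, of which 4 were compared, with Kit, the stem cell factor receptor, at -0.47 and Siglecf, a lectin of eosinophils and alveolar macrophages, at -0.35. Their sum was 109 CPM with tunicamycin and 141 CPM untreated, and the mast cell proteases Cma1 and Mcpt4 had no counts in either library. Lymphocyte markers summed to 1.155 CPM with tunicamycin and 1.84 CPM untreated, fibroblast markers to 11.5 and 11.8 CPM, and erythroid markers to 0.730 and 0.795 CPM. Of the lymphocyte markers, Cd3e, which defines T cells, had 0 counts with tunicamycin and 1 untreated. Markers of macrophages were present throughout, with a sum of 50652 CPM with tunicamycin and 53842 CPM untreated. All 16 were compared and 15 were below 0, against 49.7% of all genes, with a median of -0.11. The part of such other cells in the lower genes was not tested.

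By the gene ontology terms in the deposited annotation, given as a description, the lower genes often encode membrane or secreted proteins. Terms for an integral membrane component stood on 53.1% of the 49, against 22.2% of compared genes with terms, and for the extracellular region on 16.3%, against 4.14%. The external side of the plasma membrane was noted for 10.2%, against 1.57%, and the nucleus for 28.6%, against 38.4%.

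The 7 higher genes were led by targets of ATF4 and CHOP, the factor that Ddit3 encodes. Trib3 (chr2:152337422-152344032), a pseudokinase that ATF4 and CHOP induce, had 13.5 CPM with tunicamycin and 2.51 CPM untreated. Chac1 (chr2:119351229-119354381), which degrades glutathione, had 5.11 CPM with tunicamycin and 0.546 CPM untreated, and its fold rests on 217 and 22 counts. Ddit3 itself (chr10:127290774-127296288) had 44.3 CPM with tunicamycin and 13.5 CPM untreated. Asns, asparagine synthetase, had 30.02 CPM with tunicamycin and 11.6 CPM untreated. Slc1a4, a transporter of neutral amino acids such as serine and alanine, had 4.50 CPM with tunicamycin and 1.39 CPM untreated, 3.24-fold higher (2.39 to 4.44).

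The remaining higher genes were the neutrophil-attracting chemokine Cxcl2 and the histone gene H3c4. Cxcl2 had 679 counts with tunicamycin and 261 untreated, at a difference of 1.18. H3c4 had 21.2 CPM with tunicamycin and 9.74 CPM untreated, 2.18-fold higher (1.93 to 2.46), with reads that may be shared with other copies of histone H3. Of 44 core histone genes compared, a set chosen after its values were seen, 38 were above 0 with a median of 0.19, against 50.3% of all genes. In M-BMDM 42 of the 44 were above 0 with a median of 0.63, against 50.8% of all genes there.

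The integrated stress response was shallow outside its leading genes. Of 32 genes listed 29 were compared, 4 were at least 2-fold higher and 10 were at 0.5 or more, with a median of 0.38 in GM-BMDM and 1.60 in M-BMDM. At 0.5 or more were 0.76% of all genes in GM-BMDM and 5.64% in M-BMDM. In GM-BMDM 0.0634% of all genes were at least 2-fold higher. Nupr1, a stress-induced chromatin protein gene, had 37.8 CPM with tunicamycin and 23.7 CPM untreated (0.65). The mitochondrial folate enzyme gene Mthfd2 was at 0.61, the stress cytokine gene Gdf15 at 0.61 and the transcription factor gene Atf5 at 0.60. Atf4 had 299 CPM with tunicamycin and 216 CPM untreated, 1.38-fold higher (1.35 to 1.42). Ppp1r15a, which encodes the phosphatase subunit that restores translation, was at 0.43. The serine synthesis genes Phgdh, Psph and Psat1 were at 0.17, 0.21 and 0.01, against 1.80, 0.69 and 1.08 in M-BMDM. Slc7a11, the cystine transporter, was the sole compared member below 0, at -0.09. Of the members under the minimum level, Stc2 had 86 counts with tunicamycin and 29 untreated, Cth 20 and 13, and Fgf21 none.

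ER chaperones were higher by less than 2-fold. Hspa5, which encodes the chaperone BiP, had 1542 CPM with tunicamycin and 1048 CPM untreated, 1.47-fold higher (1.45 to 1.49). Creld2 had 42.0 CPM with tunicamycin and 28.8 CPM untreated, and the co-chaperone gene Dnajb9 77.2 and 61.4 CPM. Of 20 compared 16 were above 0, against 50.3% of all genes, and the median was 0.10. The abundant Hsp90b1, Calr and Canx were at 0.10, 0.10 and 0.00. The ER stress response element, CCAAT and CCACG with 9 bases between them, searched on both strands, stood in 7 of 18 chaperone genes with a promoter in the table, against 0.146% of compared genes. It can overlap the Y box, since both hold the CCAAT letters or their complement.

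Herpud1, a component of ER-associated degradation, had 175 CPM with tunicamycin and 106 CPM untreated, 1.65-fold higher (1.59 to 1.71), while the median of that list was 0.03. Derl3, on the same list but under the minimum level, had 26 counts with tunicamycin and 4 untreated. Xbp1, whose mRNA IRE1 splices, had 378 CPM with tunicamycin and 381 CPM untreated; gene counts do not show the splicing. The sensor genes Eif2ak3, which encodes PERK, Ern1, which encodes IRE1, and Atf6 were at -0.05, 0.23 and 0.08. The 41 genes of N-glycosylation, the pathway that tunicamycin blocks, had a median of 0.04, and their extremes were -0.25 for Dpm3, a subunit of dolichol-phosphate mannose synthase, and 0.35 for Mogs, the first glucosidase to trim the glycan. Reported substrates of IRE1-dependent decay had a median of -0.02 over 11 genes, and none was at -0.5 or less.

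Of 18 NF-kB cytokines and chemokines compared 14 were above 0, against 50.3% of all genes. Cxcl2 was at least 2-fold higher, as were 0.0634% of all genes. Their median was 0.21, while the summed level of the list was 2803 CPM with tunicamycin and 2895 CPM untreated. Besides Cxcl2 the largest were Cxcl3 at 0.59 and Il1b, interleukin-1 beta, at 0.48. Il1a, interleukin-1 alpha, had 113 CPM with tunicamycin and 84.9 CPM untreated, and Tnf, tumour necrosis factor, 23.2 and 20.6 CPM. Among members under the minimum level, Il6 had 39 counts with tunicamycin and 9 untreated, and Lif 41 and 53. Aminoacyl-tRNA synthetases had a median of 0.11 over 20 genes, against 0.66 in M-BMDM. MHC class I presentation, unlike class II, had a median of 0.04 over 19 genes, with none beyond -0.26 or 0.27.

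Most genes of mitosis and DNA replication stood slightly below 0, where 49.7% of all genes lay. All 21 mitosis genes were below 0, from -0.01 for Bub1b, a spindle checkpoint kinase, with a median of -0.16 and a lowest value of -0.43 for the spindle motor Kif23. Of 23 DNA replication genes 22 were below 0, with a median of -0.21 and a lowest value of -0.40 for the licensing factor Cdc6, while Prim1, a primase subunit, was at 0.02. In M-BMDM the medians of these lists were 0.08 and -0.01. Of 9 compared mitochondrial mRNAs 8 were below 0, with a median of -0.35 and mt-Nd4, a complex I subunit, lowest at -0.64. Genes of the mitochondrial chromosome took 1.59% of counts with tunicamycin and 1.86% untreated. Under the minimum level were mt-Co2, mt-Co3 and mt-Atp6, with 6, 38 and 33 counts with tunicamycin and 10, 29 and 32 untreated. The same held for mt-Nd4l, with no counts. How reads of these genes were assigned is not given in the sources used here.

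Genes of macrophage identity stayed close to their untreated level apart from those above. Of 20 alveolar-macrophage-like genes compared 14 were below 0, against 49.7% of all genes, with a median of -0.09. Plet1 led them at -1.10, followed by Fn1, fibronectin, with 857 CPM with tunicamycin and 1205 CPM untreated, and Fabp4, a fatty acid carrier, at -0.36. Chil3, a chitinase-like protein gene typical of GM-CSF-grown cells, was at 0.05. Genes typical of macrophages grown in M-CSF had a median of -0.11 over 17 genes, and Axl, a receptor for dying cells, had 644 CPM with tunicamycin and 777 CPM untreated.

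Ligands that steer T cells lay on both sides of 0. Of 16 checkpoint and costimulatory genes compared 9 were below 0, against 49.7% of all genes, with a median of -0.11. Cd274, which encodes the inhibitory ligand PD-L1, had 425 CPM with tunicamycin and 338 CPM untreated, at 0.33. Pdcd1lg2, which encodes PD-L2, was at -0.43, level with Cd86 at -0.42. In M-BMDM the median of the list was 0.10.

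Metabolic lists lay within a narrow band. The medians were -0.06 for cholesterol synthesis, -0.10 for glycolysis, -0.02 for nuclear oxidative phosphorylation genes and -0.10 for NRF2 antioxidant genes, and none of these lists held a gene past 2-fold. The lowest members were Hmgcs1, a cholesterol synthesis enzyme, at -0.36, Eno1, a glycolytic enzyme, at -0.27, and Hmox1, haem oxygenase, at -0.37. Amino acid transporters had a median of 0.11 over 17 genes, and behind Slc1a4 stood Slc6a9, a glycine transporter, at 0.76 and Slc7a5, a carrier of large neutral amino acids, at 0.55. Death regulators of the BCL2 family had a median of -0.05 over 19 genes, and Bcl2 itself was lowest at -0.37.

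**Figure D5:**
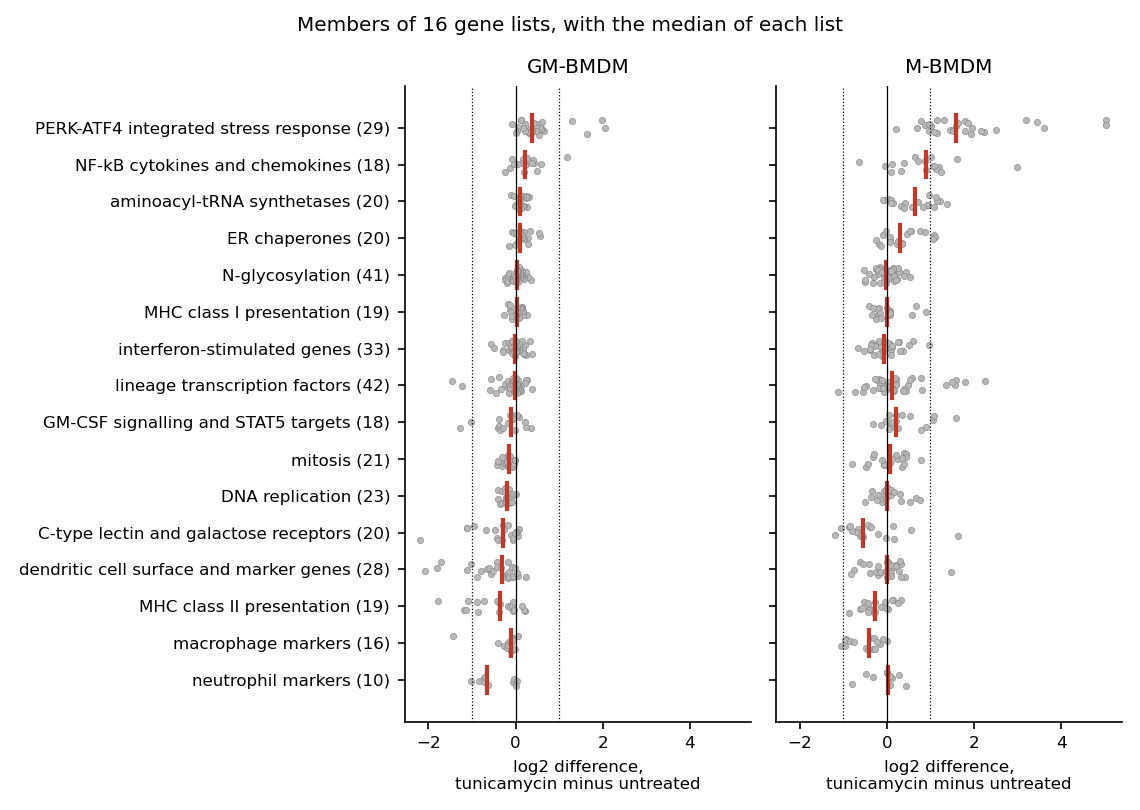
Log2 differences (x axis) of the compared members of 16 gene lists (rows, with the number of members), in GM-BMDM (left) and M-BMDM (right), where grey points are genes and red bars list medians. In GM-BMDM the medians run from 0.38 for the integrated stress response to -0.66 for neutrophil markers, and in M-BMDM the stress response stands at 1.60. Members near the floor in M-BMDM, such as Itgae and Prtn3, can hardly fall there.

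Of the 49 lower genes, 30 were under 1 CPM in untreated M-BMDM. Such genes reached the minimum level mainly through their level in GM-BMDM, so nothing is read from that number. For the other 19, M-BMDM gives a value of its own, with a median of -0.19. There 14 of the 19 were below 0, 6 were at -0.5 or less and 1 was at least 2-fold lower. Over all genes in M-BMDM 49.1% were below 0, 4.91% at -0.5 or less and 0.29% at least 2-fold lower. The higher genes were shared in direction, with all 7 above 0 in M-BMDM and 6 of them at least 2-fold higher. Over all genes in M-BMDM 50.8% were above 0 and 1.18% at least 2-fold higher. Trib3 had 76.6 CPM with tunicamycin and 1.40 CPM untreated in M-BMDM, and Ddit3 194 and 17.04 CPM.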

How the data were processed

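Total RNA was extracted with Trizol and sequenced from GM-BMDM and M-BMDM with 4 h of tunicamycin or untreated, 1 library per group. The deposited macrophage table holds, per the file headers, read counts and FPKM per gene, and all its counts were whole. FPKM recomputed from the deposited counts, gene length and column total differed by at most 4.9e-06 from the authors' FPKM, which gives a level per length here. Cutadapt 1.15, HISAT2 and TopHat2 2.1.0 are named, per the submitters' processing notes, without the step or sequence of each. The counter, the strand setting, multi-mapped reads and the genome build are not given in the sources used here, so reads of overlapping or antisense genes cannot be told apart.

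Symbols and gene ontology terms came from the series' other table by Ensembl ID (21820 IDs) and from GENCODE (226), with 14 left unnamed. Of the 21820 IDs with positions in both, 21631 (99.1%) matched those of the GENCODE M21 annotation on GRCm38, and the positions printed are the deposited ones. Promoters came from RefSeq on GRCm38.p6.

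CPM used TMM library sizes (edgeR 4.0.16 in R 4.3.3) over the 4 macrophage libraries. The pseudocount was 1 CPM and the minimum a mean of 1 CPM. The log2(CPM + 1) scale understates the change of low genes. The remaining steps ran in Python 3.11.15 with scipy 1.17.1 and were tested on simulated data. Folds have exact Clopper-Pearson intervals at 95%. Precision follows from 37695079 to 42751176 counts per library. Alternatives were DESeq2 1.42.0 size factors, total counts, pseudocounts of 0.5 and 5, other minimum levels, an interval wholly beyond 2-fold and, added after seeing the data, removal of the median of each 10% of genes by length.

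Named were all genes at least 2-fold higher, the 30 largest negative differences among genes of at least 5 CPM in either GM-BMDM library, members of the 50 lists past 2-fold or among their list's 6 largest differences, a set of stress and class II genes, and genes beside each threshold. Genes named beyond that rule, the remaining lower genes among them, were chosen after their values were seen. The comparison and the lists were chosen with earlier results of these data known. Some genes are not reported here.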

Additional observations from a re-analysis of the deposited data

Results flagged for a closer look

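Of the 49 genes at least 2-fold lower in GM-BMDM, 4 (8.16%) lay above 0 in M-BMDM with a counting interval that left out 1. Over all compared genes that share was 31.3%. Of the 49, 30 were under 1 CPM in untreated M-BMDM and could hardly give such an interval. Nothing is read from the lower share for that reason. In these 4 the single pairs of libraries differed in opposite directions. The difference between the 2 kinds of macrophage was not tested. Zmiz1, a coactivator, was at -1.05 in GM-BMDM and 0.13 in M-BMDM, where its fold was 1.10 (1.05 to 1.146). Epb41l3, a membrane-cytoskeleton linker, was at -1.26 in GM-BMDM and 0.37 in M-BMDM, where its fold was 1.37 (1.11 to 1.69). Ngp, a neutrophil granule gene, was at -1.02 in GM-BMDM and 0.43 in M-BMDM, where 30 counts with tunicamycin stood against 10 untreated. The interval of its fold in M-BMDM was 1.26 to 6.08. Tppp3, a tubulin-binding protein gene, was at -1.01 in GM-BMDM and 0.24 in M-BMDM, where 9 counts with tunicamycin stood against 1 untreated. The interval of its fold in M-BMDM was very wide, 1.10 to 348.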

How the results depend on the processing

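With 1 library per group no difference has a replicate check, and the intervals hold counting error alone. No paired analysis was possible because each group has 1 library. In GM-BMDM, 50 genes were at least 2-fold lower with DESeq2 size factors, 41 with total counts alone, 59 with a pseudocount of 0.5, 55 with no minimum level, 54 with the minimum taken over the pair of libraries compared, 42 by intervals wholly beyond 2-fold and 46 with the length medians removed, an alternative added after seeing the data, and the higher genes numbered 7 or 8. A minimum mean of 5 CPM left 27 lower, since fewer genes were compared. A pseudocount of 5, which shrinks low genes, left 14 lower and 3 higher in GM-BMDM and 17 lower in M-BMDM, moved the median of the mitochondrial mRNAs to -0.28 and that of the neutrophil markers to -0.41. Total counts alone moved the median of all genes by 0.05 in GM-BMDM and 0.11 in M-BMDM and left 17 lower in M-BMDM. With it the list medians came to -0.032 for alveolar-macrophage-like genes, 0.16 for ER chaperones, -0.00753 for fatty acid synthesis and lipid handling, -0.049 for glycolysis, 0.013 for lysosome and autophagy, -0.051 for NRF2 antioxidant genes and -0.054 for macrophage markers. Under these scalings 13 list medians changed sign, none of them beyond 0.05 in size. No called difference changed sign under the alternatives run. Differences of that size could hardly do so under them, so this adds no support.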

Other observations

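Some kynurenine-pathway genes other than Kmo stood below 0 and Kyat1 above it. Haao, the enzyme that opens the ring of the Kmo product's derivative, had 1.70 CPM with tunicamycin and 3.48 CPM untreated, and Kynu, kynureninase, 75.6 and 93.7 CPM. Kyat1, a kynurenine aminotransferase, had 3.68 CPM with tunicamycin and 2.29 CPM untreated, at 0.51. Of 6 listed genes compared 5 were below 0, against 49.7% of all genes, with a median of -0.35. Among receptors that sense microbes, Tlr9, the receptor of bacterial DNA, had 2.99 CPM with tunicamycin and 5.69 CPM untreated, and the lipopolysaccharide-related pair Cd180 and Ly86 stood at -0.45 each, while the median of the 18 Toll-like receptor genes and adaptors was -0.05.

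Genes above 0 outside the lists of the stress response were few in size. Gadd45a, a growth-arrest gene, had 23.2 CPM with tunicamycin and 13.3 CPM untreated, and Vegfa, the vascular growth factor, 95.03 and 65.4 CPM. Serpinb2, the plasminogen activator inhibitor of macrophages, had 39.9 CPM with tunicamycin and 27.5 CPM untreated. In M-BMDM Gadd45a was at 2.49 and Vegfa at 1.147.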
